A study of Mus musculus with 12 samples.

Results

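The comparison described here set the wild-type hippocampus against the wild-type ileum, 3 arrays of each, among the 12 arrays of the study. All transcript clusters that the platform annotation ties to a single gene symbol were taken, 21218 of the 35556 clusters on the array, for 18820 genes. A transcript cluster is the set of probes that reads 1 gene or transcript. Both tissues came from FIRE +/+ mice aged 6 weeks on a C57BL/6J/CBA background, with 2 males and 1 female in each group by their labels. FIRE is an enhancer within *Csf1r*, the gene of the macrophage growth factor receptor. The line goes back to 1 male founder, and the wild-type mice carry the intact enhancer. The mice were perfused with saline, and the gut samples were labelled Peyer's Patches/Ileum, a section taken to include a patch. The labels do not say whether the same mice gave both tissues, or that each array is a separate mouse, so p-values measure the spread between these samples. The other 6 arrays, 3 of each tissue from FIRE -/- mice of the same age and background, appear only beside results on macrophage genes and in the tests of other settings.

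The hippocampus is a sheet of excitatory and inhibitory neurons wrapped by astrocytes and myelinating oligodendrocytes, and its resident macrophages are the microglia. The ileum is lined by a renewing epithelium that absorbs bile acids and nutrients and secretes mucus and antimicrobial proteins, over smooth muscle and enteric nerves. Its macrophages lie in the lamina propria and the muscle layer, and Peyer's patches add follicles of B cells. Microglia and gut macrophages share the complement, Fc receptor and CSF1R genes of the lineage, and each carries further genes tied to its site. In whole tissue, fewer cells of a type and less RNA per cell cannot be told apart.

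Values are log2 signals after robust multi-array averaging (RMA), and a difference is hippocampus minus ileum on that scale. A change was called at an adjusted p below 0.05 in limma over all 21218 clusters, so that 5749 (27.1%) were higher in the hippocampus and 6242 (29.4%) in the ileum. Over 2-fold by limma's treat test, which asks whether a difference exceeds a log2 value of 1, were 2757 (13%) and 2426 (11.4%). The median difference over all clusters was -0.03. Arrays of the hippocampus correlated across clusters with r from 0.992 to 0.995, those of the ileum from 0.984 to 0.989, and arrays of different tissues from 0.737 to 0.758. All 3 hippocampus arrays carry the code number 07 and all 3 ileum arrays 09, so for these arrays code number and tissue cannot be told apart. With the FIRE -/- arrays, where both numbers occur in the hippocampus, in a fit with the number as a term, 4421 and 4471 clusters were called. FIRE -/- hippocampus replicate 3 carries 07 and replicates 1 and 2 carry 09. The term rests on that single array against the other replicates. The array gives no detection call, so a low value may be background, and folds of such genes may be compressed.

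Individual arrays stood apart within a tissue. Ileum replicate 2 lay more than 2 log2 units above both other ileum arrays for 88 clusters, led by the B cell genes *Cd79a*, *Fcmr* and *Ms4a1*. The mean of 9 B cell genes was 3.41, 7.55 and 3.58 in the ileum, beside 3.02, 2.99 and 3.18 in the hippocampus. Ileum replicate 2 thus held the B cell signal of the ileum group almost alone, and none of the 9 genes was called over all 6 arrays, while 4 were called without it. *Ms4a1*, which encodes CD20, was at 2.68, 7.66 and 2.50 on the ileum arrays and at 2.13, 1.98 and 1.85 in the hippocampus, and *Gp2*, the receptor of microfold cells over Peyer's patches, at 2.34, 6.84 and 2.65 in the ileum beside 2.10, 2.20 and 2.39 in the hippocampus. The other 5 of 6 microfold cell genes were higher in the ileum, beside 29.4% of all clusters. The mean of all 6 was 5.92, 7.25 and 5.78 in the ileum and 3.46, 3.63 and 3.82 in the hippocampus. On ileum replicates 1 and 3, the mean of the B cell genes and *Gp2* were thus near their hippocampal values. The microfold list as a whole was not. Which cells gave the signal of that list, and how much patch each sample held, was not tested. Hippocampus replicate 2 lay as far below its neighbours for 12 clusters, among them *Ttr*, *Folr1*, *Kcnj13* and *Clic6*, which mark the choroid plexus, the tissue that secretes cerebrospinal fluid. *Ttr*, the thyroxine carrier, was at 12.42, 9.24 and 12.11 in the hippocampus. The log2 difference of *Folr1* was 1.85 (limma adjusted p = 0.0845) and without that array 2.92 (adjusted p = 3.17e-05).

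**Figure D1:**
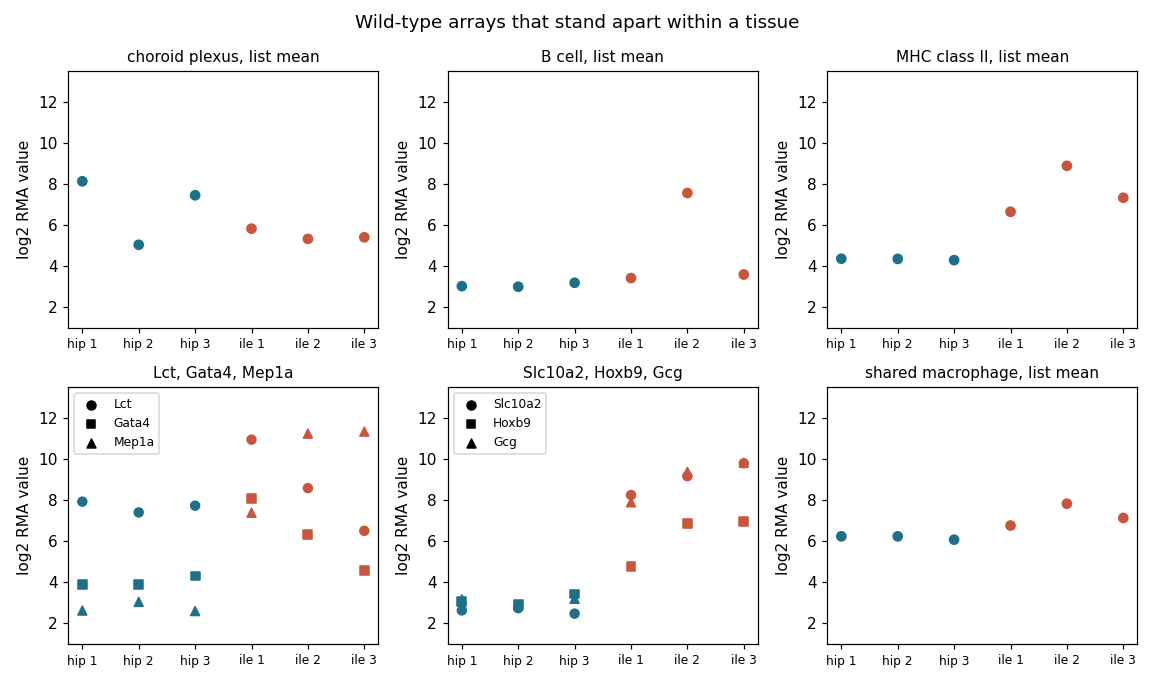
log2 RMA values on the 6 wild-type arrays, hippocampus (hip, blue) and ileum (ile, red) replicates 1 to 3, as list means or single genes. Hippocampus replicate 2 lies at 5.03 for the choroid plexus list where its neighbours lie at 8.12 and 7.44, and ileum replicate 2 lies at 7.55 for the B cell list where its neighbours lie at 3.41 and 3.58.

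The ileum arrays also differed in genes that vary along the small intestine. *Lct*, which encodes lactase, was at 10.94, 8.58 and 6.50 in ileum replicates 1 to 3, and *Gata4*, a transcription factor of the upper small intestine, at 8.09, 6.34 and 4.56. *Slc10a2*, the bile acid uptake carrier of the distal ileum, was at 8.24, 9.16 and 9.79, and *Hoxb9* at 4.75, 6.84 and 6.93. Replicate 1 was thus the highest for the first pair and the lowest for the second. *Mep1a*, a brush border metalloprotease subunit, was at 7.38, 11.23 and 11.33, low on replicate 1 alone. The hippocampus was at 7.92, 7.40 and 7.72 for *Lct*, within the ileum's range, and *Lct* was the 1 enterocyte gene of 24 that was not called.

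Neuronal and glial genes led the hippocampal side. All 21 neuronal genes measured were higher in the hippocampus, with a median log2 difference of 5.56, and so were all 14 glutamate and GABA receptor genes, with a median of 6.71. These lists were chosen as markers of the tissue, and over all clusters 27.1% were called in that direction. *Slc17a7*, the vesicular glutamate transporter of excitatory neurons, was at 11.81, 11.86 and 11.53 in the hippocampus against 2.99, 3.80 and 3.35 in the ileum. It was 328-fold higher, the largest of all differences towards the hippocampus (limma adjusted p = 3.24e-08). The next were *Ddn*, a dendritic protein, at 315-fold, and *Gabra5*, a GABA receptor subunit rich in the hippocampus, at 298-fold. *Gad1* and *Gad2*, which make GABA in inhibitory neurons, were 59.3- and 49.5-fold higher.

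Genes that mark fields of the hippocampus were called in the same direction for 11 of 12, beside 27.1% of all clusters. Those of the dentate gyrus included *Prox1*, its granule cell transcription factor, at 8.55, 8.30 and 8.18 in the hippocampus against 5.50, 5.83 and 5.55 in the ileum, and *C1ql2* (17.1-fold). Those of CA1 included *Fibcd1* (19-fold) and *Mpped1* (75.2-fold), and *Grik4*, a kainate receptor of CA3, was 27.6-fold higher. The exception, *Dsp*, encodes desmoplakin of desmosomes, and was at 6.88, 6.64 and 6.89 in the hippocampus against 10.58, 10.38 and 10.23 in the ileum.

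Astrocyte genes were called higher in the hippocampus for 14 of 17 (median 4.02) and oligodendrocyte genes for 14 of 15 (median 5.62). Of all clusters 27.1% were called in that direction. *Mlc1*, a membrane protein of astrocyte endfeet, was 105-fold higher, *Slc1a2*, the main glutamate uptake carrier, 73.7-fold, and *Gfap* 50.3-fold. *Mag*, a myelin adhesion protein, was 128-fold higher, and *Cldn11*, the claudin of myelin, 90.2-fold. 2 genes ran the other way. *Aldh1l1*, a folate enzyme used as an astrocyte marker, was at 7.68, 7.61 and 7.30 in the hippocampus against 9.14, 8.77 and 8.48 in the ileum (2.41-fold higher in the ileum, adjusted p = 6.17e-04). *Aspa*, the N-acetylaspartate hydrolase of oligodendrocytes, was at 6.52, 7.13 and 6.36 in the hippocampus against 9.05, 8.53 and 8.69 in the ileum (4.26-fold, adjusted p = 9.56e-05). *Sox9* differed by 0.24 (95% interval -0.12 to 0.60) and *Slc4a4* by 0.11 (95% interval -0.22 to 0.45).

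**Figure D2:**
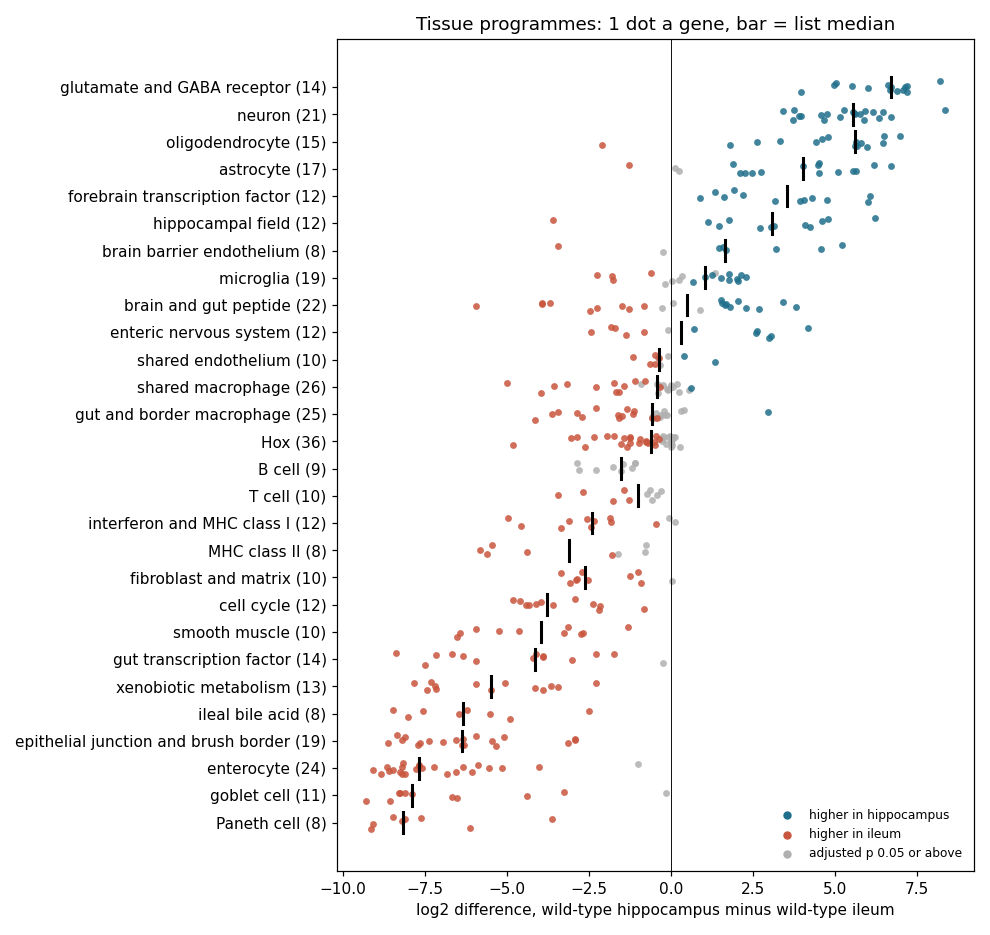
Each dot is a gene at its log2 difference, wild-type hippocampus minus wild-type ileum (3 arrays each), each row a gene list with the number measured, and each black bar the list median. Blue and red dots passed an adjusted p of 0.05 in limma. Medians run from 6.71 for glutamate and GABA receptors to -8.16 for Paneth cell genes, and the macrophage lists lie between 1.04 and -0.58.

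Macrophage genes lay between these extremes. Of 70 measured genes of 3 lists, microglial, shared and gut or border macrophage, 12 were higher in the hippocampus, 30 higher in the ileum and 28 not called, beside 27.1% and 29.4% of all clusters. With the array code number as a term 26 of the 70 were called in place of 42. *Csf1r* was at 8.34, 8.31 and 8.15 in the hippocampus against 7.41, 8.17 and 7.39 in the ileum. The difference of 0.61 (standard error 0.21, limma adjusted p = 0.0406) came with overlapping groups, and 11 of 18 other settings ended the call or turned its sign. It lay between 0.48 and 0.87 with 1 array left out, the larger value without ileum replicate 2.

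Shared genes of the lineage were often at similar signal. The C1q chains *C1qa*, *C1qb* and *C1qc*, which start the classical complement pathway, differed by -0.39, -0.08 and -0.01 (95% intervals -0.84 to 0.05, -0.77 to 0.60 and -0.80 to 0.79). *Tyrobp*, the adaptor of TREM2 and other receptors, was at 5.85, 5.89 and 5.45 in the hippocampus against 5.58, 6.07 and 5.64 in the ileum, a difference of -0.03 (95% interval -0.45 to 0.39). *Aif1*, which encodes IBA1, differed by -0.13 (-0.55 to 0.29) and *Cd68*, a lysosomal protein, by 0.07 (-0.70 to 0.84). Of the 28 genes not called, 20 had a 95% interval within 1 log2 unit of 0 on both sides. In the other 8 the interval reached past 2-fold.

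Of the 19 microglial genes, 10 were higher in the hippocampus, 4 higher in the ileum and 5 not called. Their median was 1.04, and 27.1% and 29.4% of all clusters were called in those directions. *Cx3cr1*, the fractalkine receptor, was at 7.46, 7.51 and 7.48 in the hippocampus against 5.16, 6.17 and 5.78 in the ileum (3.43-fold, adjusted p = 3.0e-04). *P2ry12*, the purinergic receptor that steers microglial processes, was at 5.89, 5.46 and 5.46 in the hippocampus against 3.53, 4.08 and 3.90 in the ileum (3.41-fold, adjusted p = 7.64e-05). *Trem2*, a lipid-sensing receptor, was at 6.55, 6.70 and 6.50 in the hippocampus against 4.19, 4.59 and 4.52 in the ileum (4.44-fold, adjusted p = 4.33e-06). In each of these the groups did not overlap. *Siglech*, *Fcrls* and *Sall1*, a transcription factor of microglial identity, were 4.07-, 4.16- and 4.89-fold higher in the hippocampus.

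The FIRE -/- hippocampus gives a reading of what remains of these transcripts in the same tissue. There *P2ry12* was at 3.59, 3.62 and 3.50, *Trem2* at 4.49, 4.21 and 4.22 and *Fcrls* at 3.34, 3.13 and 3.29, near or below the wild-type ileum. *Sall1* was at 6.0, 5.63 and 5.66 in the FIRE -/- hippocampus and 4.06, 4.87 and 4.81 in the FIRE -/- ileum, and *Cst3*, which encodes cystatin C, at 12.05, 12.11 and 12.04 against 10.93, 11.14 and 11. The groups did not overlap for this last pair of genes without the enhancer either. Of the 10 microglial genes called higher in the hippocampus, 7 were more than 1 log2 unit lower in the FIRE -/- than in the wild-type hippocampus. The 10 were selected on the same wild-type values, and the share of all clusters that lay as much lower was not counted. In a contrast of FIRE -/- arrays of code number 09 alone, the differences of *P2ry12*, *Trem2* and *Fcrls* were 0.04, -0.07 and -0.10.

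Some genes named for microglia were not higher in the hippocampus. *Tmem119*, a microglial surface protein, was at 7.47, 7.22 and 7.13 in the hippocampus against 6.36, 7.33 and 7.36 in the ileum, a difference of 0.26 (95% interval -0.37 to 0.88). *Olfml3* and *Sparc*, both secreted matrix proteins, differed by 0.34 (-0.19 to 0.87) and -0.17 (-0.54 to 0.20). *Slc2a5*, a fructose transporter of microglia and of the enterocyte brush border, was at 6.51, 6.20 and 6.21 in the hippocampus against 9.0, 8.67 and 8.0 in the ileum (4.76-fold higher in the ileum). *Pros1*, *Golm1* and *Entpd1* were 3.39-, 3.50- and 1.52-fold higher in the ileum. *Entpd1* was no longer called with the array code number as a term (limma adjusted p = 0.313). *Selplg* was at 7.52, 7.41 and 7.50 in the hippocampus against 5.10, 7.39 and 5.87 in the ileum, and its difference of 1.35 lay at the threshold (adjusted p = 0.0506). It was 1.99 without ileum replicate 2 (adjusted p = 0.000203), and was also called with all arrays kept under 4 other settings, with adjusted p from 0.0140 to 0.0421.

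**Figure D3:**
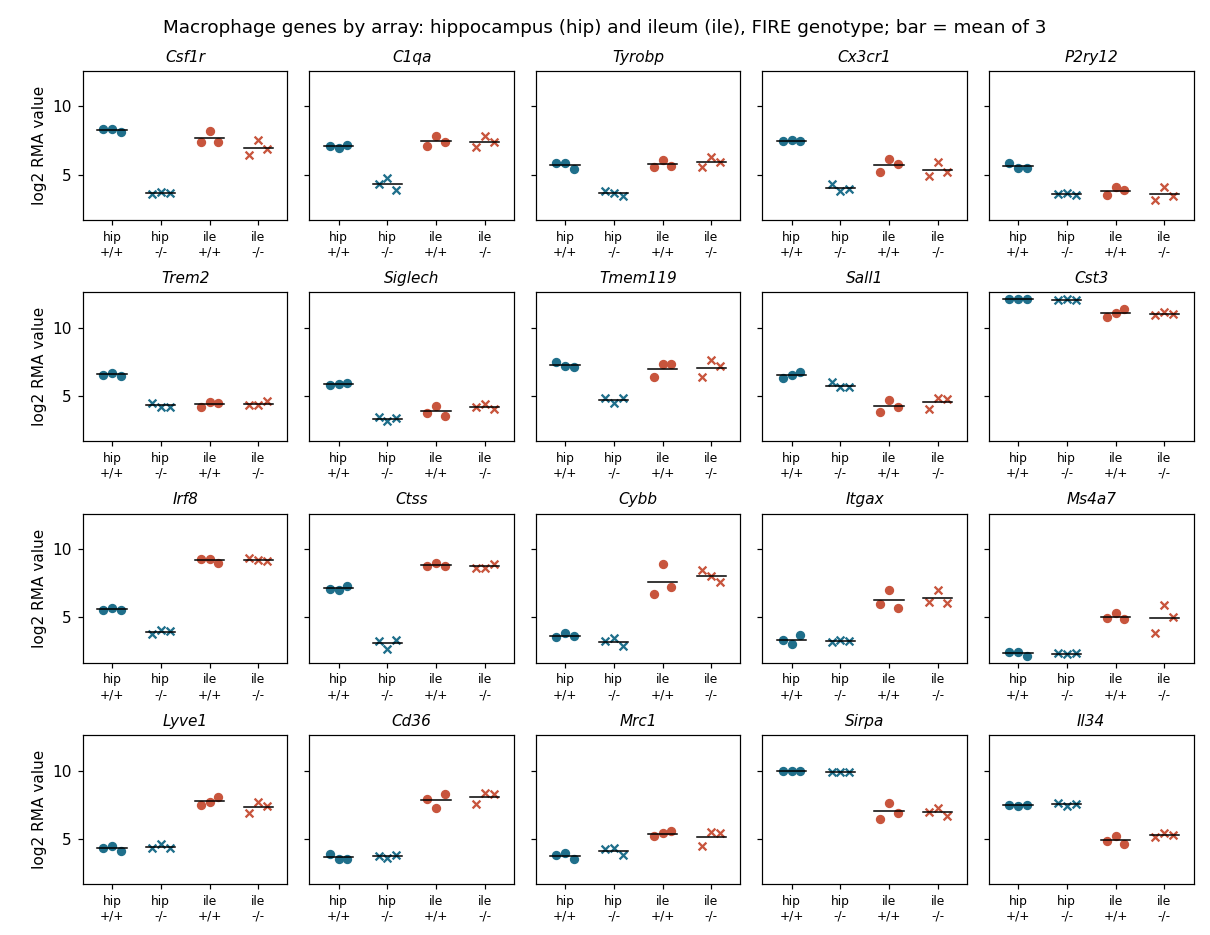
log2 RMA values of 20 genes on each array, hippocampus (hip, blue) and ileum (ile, red) of FIRE +/+ (circles) and FIRE -/- (crosses) mice, with bars at the mean of 3. *C1qa* and *Tyrobp* overlap between the wild-type tissues, *P2ry12* and *Trem2* are higher in the wild-type hippocampus than in the other 3 groups, and *Itgax*, *Ms4a7* and *Cd36* are high in both ileum groups.

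In the shared list of 26, 1 gene was called higher in the hippocampus, *Csf1r*, and 12 higher in the ileum. Of all clusters 27.1% and 29.4% were called in these directions. *Irf8*, a transcription factor of macrophages, dendritic cells and B cells, was at 5.58, 5.70 and 5.57 in the hippocampus against 9.31, 9.30 and 8.97 in the ileum (11.9-fold, adjusted p = 1.74e-07). *Ctss*, the protease that trims the invariant chain, was at 7.11, 7.03 and 7.27 in the hippocampus against 8.77, 9.02 and 8.80 in the ileum (3.31-fold, adjusted p = 7.51e-06). Both were well apart between tissues and similar across the ileum arrays. *Cybb* and *Cyba*, the subunits of the phagocyte oxidase, were 15.4- and 9.02-fold higher in the ileum, and *Cybb* was at 6.68, 8.93 and 7.24 there. *Mpeg1*, *Unc93b1* and *Cd14* were 2.69-, 3.22- and 3.0-fold higher. *Mpeg1* was no longer called with the array code number as a term (limma adjusted p = 0.108).

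Several shared genes followed ileum replicate 2. *Ptprc*, the common leukocyte antigen CD45, was at 6.27, 8.02 and 6.02 in the ileum, *Cd53* at 5.90, 8.38 and 6.39, *Laptm5* at 7.60, 10.13 and 8.39 and *Ly86* at 6.26, 8.55 and 7.04. Without that array *Laptm5* and *Ly86* were called higher in the hippocampus, at 0.95 and 1.20 (adjusted p = 0.0109 and 0.00296). B cells also express these 4 genes, the 9 B cell genes ranged from 2.99 to 3.18 in their mean on the hippocampus arrays and from 3.41 to 7.55 on the ileum arrays, and their part in these results was not tested. The mean of the 26 shared genes was 6.23, 6.23 and 6.07 in the hippocampus against 6.76, 7.82 and 7.13 in the ileum.

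Genes of gut and border macrophages were higher in the ileum for 14 of 25, higher in the hippocampus for 1 and not called for 10. Calls in those directions were made for 29.4% and 27.1% of all clusters. *Itgax*, which encodes CD11c, was at 3.32, 3.09 and 3.71 in the hippocampus against 5.95, 7.04 and 5.72 in the ileum (7.30-fold, adjusted p = 1.60e-04). *Ms4a7* was at 2.46, 2.44 and 2.18 in the hippocampus against 4.98, 5.35 and 4.86 in the ileum (6.51-fold, adjusted p = 2.44e-06), and *Cxcl16*, a membrane chemokine, at 4.0, 3.93 and 4.15 in the hippocampus against 7.40, 8.03 and 7.51 in the ileum (12.3-fold). The hippocampal values of *Itgax* and *Ms4a7* were close to the same in the FIRE -/- hippocampus, at 3.20, 3.38 and 3.30 and 2.37, 2.29 and 2.36. *Mrc1* (CD206), *Timd4*, *Stab1* and *Mertk* were 3.08-, 2.84-, 2.53- and 2.24-fold higher in the ileum. With the array code number as a term *Mrc1* and *Stab1* were no longer called (limma adjusted p = 0.0663 and 0.0652). *Cd163*, *Ccr2*, *Folr2* and *Vsig4* were not called, with differences from -0.56 to -0.20.

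The 1 gene of that list on the hippocampal side was *Sirpa*, the inhibitory receptor for CD47, at 9.99, 9.99 and 9.94 in the hippocampus against 6.43, 7.65 and 6.92 in the ileum (7.85-fold, adjusted p = 3.93e-05). It was at 9.92, 9.86 and 9.89 in the FIRE -/- hippocampus, and neurons are known to express it. Others of the list are shared with other cells of the gut. *Lyve1* (10.9-fold higher in the ileum) also marks lymphatic vessels, where *Flt4*, a growth factor receptor of lymphatic endothelium, was 4.07-fold higher. *Cd36* (17.7-fold) is also made by enterocytes and endothelium, and *Cd4* (4.91-fold, 5.01, 6.93 and 5.31 in the ileum) by T cells. Of 10 listed T cell genes 5 were higher in the ileum, beside 29.4% of all clusters. What these cells add to the macrophage values was not tested.

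Of 9 ligands and receptors of the growth factor axis 5 were higher in the hippocampus, 3 in the ileum and 1 was not called. Of these 8 calls 2, those of *Il34* and *Csf2rb*, stayed past the threshold in every setting tried. *Il34*, the CSF1R ligand of neurons, was at 7.44, 7.39 and 7.49 in the hippocampus against 4.83, 5.24 and 4.63 in the ileum (5.82-fold, adjusted p = 4.17e-06), and at 7.65, 7.43 and 7.55 in the FIRE -/- hippocampus. *Csf1*, the second ligand, was at 7.16, 6.96 and 6.99 in the hippocampus against 6.01, 6.80 and 6.61 in the ileum, a difference of 0.56 (adjusted p = 0.0462) that lost its call in 10 of 18 other settings. *Csf2rb* and *Csf2ra*, the receptor chains for GM-CSF, were 6.67- and 1.96-fold higher in the ileum, and *Csf2rb* has a near-identical copy, *Csf2rb2*, that may share its probes. Of 17 macrophage transcription factors 5 were higher in the hippocampus, 8 in the ileum and 4 not called. The shares of all clusters were 27.1% and 29.4%. *Maf*, *Nr1h3* (LXRα) and *Runx1* were 6.77-, 10.5- and 4.81-fold higher in the ileum, while *Mef2c* and *Bhlhe41* were 6.56- and 6.94-fold higher in the hippocampus. These are values of whole tissue, and what cells other than macrophages add to them was not tested. *Spi1*, which encodes PU.1, was at 5.51, 5.29 and 5.43 in the hippocampus against 5.51, 7.35 and 6.07 in the ileum and was not called (adjusted p = 0.100).

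PU.1 binds purine-rich sites in macrophage promoters, so RefSeq promoter windows of 300 bases (GRCm38.p6, 250 bases before to 50 after a start) were searched on both strands for GAGGAAGT. The motif was in 3 of 21 windows of the shared macrophage list (14.3%), those of *Ctss*, *C1qc* and *Cd53*, in 0 of 19 microglial windows, and in 3.2% of all 32851 windows. It was in 2 of 20 windows (10%) of the gut and border macrophage list. Over all lists, many of few windows, its share ran from 0% to 20%, the highest in the stem cell list. The shorter core GAGGAA, which the longer motif contains, was in 13 of the 21 shared (61.9%), 7 of the 19 microglial (36.8%) and 28.3% of all windows. Its share over all lists ran from 0% to 71.4%, so a high share was not particular to the shared macrophage list. The windows of *Ctss*, higher in the ileum, and *C1qc*, at similar signal in both tissues, are shown with the match in capitals, which lies on the strand opposite to the gene. A match is a description of the letters.
*Ctss* (chr3:95526536-95526835, + strand): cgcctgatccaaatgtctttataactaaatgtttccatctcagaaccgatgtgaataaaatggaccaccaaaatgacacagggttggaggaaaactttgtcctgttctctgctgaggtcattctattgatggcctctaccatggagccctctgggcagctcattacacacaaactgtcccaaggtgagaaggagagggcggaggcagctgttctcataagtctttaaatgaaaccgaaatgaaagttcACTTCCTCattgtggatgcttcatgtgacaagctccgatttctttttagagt
*C1qc* (chr4:136892865-136893164, - strand): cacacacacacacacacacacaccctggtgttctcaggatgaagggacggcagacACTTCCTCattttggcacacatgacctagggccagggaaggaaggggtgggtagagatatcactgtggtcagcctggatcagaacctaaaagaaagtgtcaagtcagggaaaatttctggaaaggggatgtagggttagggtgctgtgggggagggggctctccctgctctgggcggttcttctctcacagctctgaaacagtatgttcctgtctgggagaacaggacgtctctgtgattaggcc

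Genes of antigen presentation were far apart. *H2-Aa*, a class II chain, was at 3.39, 3.47 and 3.21 in the hippocampus against 8.11, 10.22 and 9.26 in the ileum (57.3-fold, adjusted p = 1.44e-05). *Cd74*, the invariant chain, was at 5.01, 4.65 and 4.35 in the hippocampus against 9.58, 11.04 and 10.21 in the ileum (48.8-fold). Of 8 class II genes 5 were higher in the ileum and 3 not called, beside 29.4% of all clusters higher there. The values were highest on ileum replicate 2, and class II is also made by B cells, dendritic cells and enterocytes of the ileum. Class I and interferon genes were higher in the ileum for 10 of 12 (median -2.40). *B2m*, the class I light chain, was at 9.29, 9.32 and 8.67 in the hippocampus against 11.51, 11.38 and 11.41 in the ileum (5.06-fold), *Irf7* was 31.3-fold higher and *H2-K1* 24-fold, and on none of these 3 was ileum replicate 2 the highest. *Isg15*, an interferon-induced ubiquitin-like protein, was at 2.92, 3.09 and 2.97 in the hippocampus against 3.48, 2.64 and 2.99 in the ileum and was not called.

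An interferon response element, taken here as GAAA, any 2 bases and GAAA on either strand, was in 5 of the 11 promoter windows of the class I and interferon list (45.5%) and in 3.44% of all windows. Those of *B2m*, which was called, and of *Isg15*, which was not, are shown with the matches in capitals.
*B2m* (chr2:122147437-122147736, + strand): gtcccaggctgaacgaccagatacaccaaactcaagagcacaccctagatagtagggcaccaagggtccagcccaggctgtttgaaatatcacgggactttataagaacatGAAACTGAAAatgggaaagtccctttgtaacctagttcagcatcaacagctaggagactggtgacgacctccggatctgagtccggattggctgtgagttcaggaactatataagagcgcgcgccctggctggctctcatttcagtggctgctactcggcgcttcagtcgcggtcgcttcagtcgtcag
*Isg15* (chr4:156200769-156201068, - strand): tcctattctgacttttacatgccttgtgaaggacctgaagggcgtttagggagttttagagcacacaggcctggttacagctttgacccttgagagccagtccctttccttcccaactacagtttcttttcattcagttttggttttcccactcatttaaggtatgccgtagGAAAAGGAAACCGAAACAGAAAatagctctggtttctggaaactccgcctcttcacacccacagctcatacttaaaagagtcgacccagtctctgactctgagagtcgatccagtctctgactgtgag

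Epithelial genes led the gut side. Of 24 enterocyte genes 23 were higher in the ileum, with a median difference of -7.68, as were all 19 junction and brush border genes (-6.38), all 8 of ileal bile acid handling (-6.34), 10 of 11 goblet cell genes (-7.90) and all 8 Paneth cell genes (-8.16). Over all clusters 29.4% were called in that direction. *Clca1*, secreted by goblet cells into mucus, was at 2.74, 2.44 and 2.99 in the hippocampus against 12.05, 11.91 and 12.09 in the ileum, 628-fold higher and the largest difference of all (adjusted p = 1.16e-08). *Defa24*, a defensin of Paneth cells, was 574-fold higher, *Reg3g*, an antibacterial lectin, 549-fold, *Fabp2*, the intestinal fatty acid binding protein, 546-fold and *Sis*, which digests sucrose, 458-fold. Defensin genes are near-identical, so the value may be shared among copies.

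Bile acid genes followed the path of the acids. *Slc10a2* takes them up, *Fabp6* carries them through the cell and *Slc51a* and *Slc51b* release them, and these were 87.6-, 356-, 258- and 191-fold higher in the ileum. *Nr1h4*, the bile acid receptor FXR, was at 3.26, 2.87 and 3.35 in the hippocampus against 8.40, 8.48 and 9.14 in the ileum (45.8-fold), and *Fgf15*, the hormone it induces, at 4.15, 4.24 and 3.98 in the hippocampus against 9.64, 9.01 and 8.49 in the ileum (30.3-fold). All 8 were called higher in the ileum, beside 29.4% of all clusters. Enzymes of xenobiotic metabolism were higher in the ileum for all 13 measured (median -5.49), led by *Ces2e* (228-fold) and *Cyp3a13* (173-fold).

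Genes of the cell cycle and of intestinal stem cells were higher in the ileum, the direction called for 29.4% of all clusters. Which cells gave the cell cycle signal was not tested. All 12 cell cycle genes were higher in the ileum (median -3.77), with *Mki67* at 4.13, 3.96 and 3.79 in the hippocampus against 8.93, 8.82 and 8.55 in the ileum. Of 7 stem cell genes 6 were higher, *Olfm4* by 97.5-fold and *Lgr5*, a receptor that marks crypt base cells, by 11.3-fold. Smooth muscle genes were higher for 10 of 10, led by *Cnn1*, calponin, at 92.7-fold. Fibroblast and matrix genes were higher for 9 of 10, and *Pdgfra* was the exception, at 8.36, 8.37 and 8.31 in the hippocampus against 8.19, 8.43 and 8.36 in the ileum. *Pdgfra* marks oligodendrocyte precursors in brain and fibroblasts in gut, and its difference was 0.02 (95% interval -0.23 to 0.28).

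The HNF4 factors of enterocytes, *Hnf4a* and *Hnf4g*, were 180- and 332-fold higher in the ileum. AAAGTCCA, a core of sites bound by HNF4, was in 57 of 2236 promoter windows (2.55%) of genes over 2-fold higher in the ileum, in 16 of 2752 (0.581%) of those over 2-fold higher in the hippocampus and in 1.25% of all windows. GAGGAAGT was in 3.4% of the ileum windows and 1.64% of the hippocampus windows, and the interferon response element in 4.56% and 2.8%. A higher share on the ileum side was thus not particular to AAAGTCCA. Over all lists, many of few windows, its share ran from 0% to 50%, the highest in the lysozyme family. The enterocyte list held AAAGTCCA in 2 of 21 windows, those of *Treh* and of *Alpi*, the intestinal alkaline phosphatase, which was 295-fold higher in the ileum. The match in *Alpi* lies 18 bases before the start.
*Alpi* (chr1:87101557-87101856, - strand): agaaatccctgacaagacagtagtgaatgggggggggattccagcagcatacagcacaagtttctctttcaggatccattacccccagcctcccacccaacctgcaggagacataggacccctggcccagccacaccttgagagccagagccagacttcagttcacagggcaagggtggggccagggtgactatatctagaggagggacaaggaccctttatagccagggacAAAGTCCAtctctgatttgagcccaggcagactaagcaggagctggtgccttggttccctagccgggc

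Transcription factors of position divided by organ. All 12 forebrain factors were higher in the hippocampus (median 3.56), among them *Lhx2* (64.4-fold), *Tbr1* (68.1-fold) and *Emx2* (16.9-fold), which pattern the cortex. Of 14 gut factors 13 were higher in the ileum (median -4.15), among them *Cdx2*, which sets intestinal identity, at 3.17, 2.60 and 3.13 in the hippocampus against 9.86, 10.31 and 10.22 in the ileum (143-fold). Of 36 *Hox* genes, which mark position along the trunk and are silent in forebrain, 22 were higher in the ileum and 0 in the hippocampus. The shares of all clusters were 29.4% and 27.1%. The *Hox* calls fell in a block by paralog number, a pattern seen after the values. All 19 measured genes of numbers 2 to 8 were higher in the ileum (median -1.26), 3 of 15 of numbers 9 to 13 (median -0.03) and 0 of 2 of number 1. *Hoxc8* was at 2.69, 3.16 and 3.26 in the hippocampus against 7.39, 7.79 and 8.35 in the ileum (28-fold, adjusted p = 1.51e-06), *Hoxb5* at 3.37, 3.57 and 3.61 in the hippocampus against 5.49, 6.54 and 7.15 in the ileum (7.36-fold), and *Hoxb9* was 8.20-fold higher. With the array code number as a term, 9 of the 22 were no longer called.

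**Figure D4:**
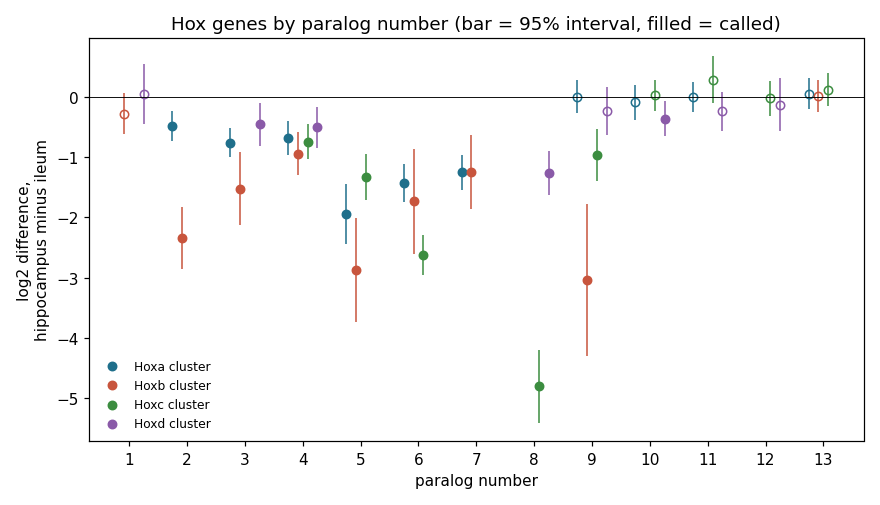
log2 difference, wild-type hippocampus minus wild-type ileum, of 36 *Hox* genes against their paralog number, coloured by cluster, with 95% intervals and filled symbols where called. Numbers 2 to 8 lie below 0 throughout, with *Hoxc8* lowest at -4.80, and most of numbers 9 to 13 lie near 0.

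Members of 1 gene family were often divided between the organs. Among fatty acid binding proteins *Fabp3*, *Fabp5* and *Fabp7*, the forms of heart, skin and brain, were 24.5-, 6.18- and 16.7-fold higher in the hippocampus, and *Fabp1*, *Fabp2*, *Fabp4* and *Fabp6* were 16.2- to 546-fold higher in the ileum. Among claudins, which seal epithelia, *Cldn5*, *Cldn10* and *Cldn11* were higher in the hippocampus (3.0- to 90.2-fold) and *Cldn2*, *Cldn3*, *Cldn4*, *Cldn7* and *Cldn15* in the ileum (14.3- to 212-fold). The hexose carriers *Slc2a1* and *Slc2a3* were higher in the hippocampus (3.24- and 16.9-fold), and *Slc2a2* and *Slc2a5* in the ileum (17.7- and 4.76-fold). *Cdh1*, E-cadherin, was 81.6-fold higher in the ileum and *Cdh2*, N-cadherin, 14.9-fold higher in the hippocampus. *Hk1* and *Hk2*, and *Eno2* and *Eno3*, ran in opposite directions as well. *Lyz1*, the Paneth cell lysozyme, was 297-fold and *Lyz2*, the macrophage lysozyme, 31.9-fold higher in the ileum, and since the 2 genes are near-identical the split between them is uncertain.

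**Figure D5:**
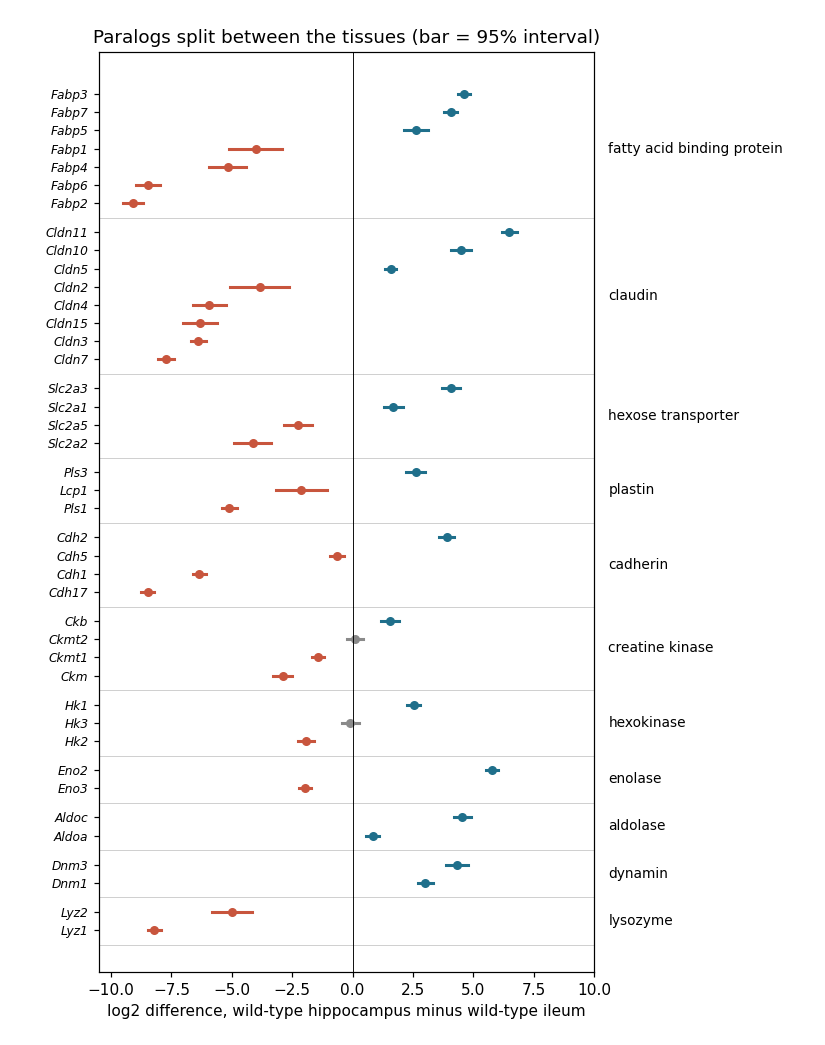
log2 difference, wild-type hippocampus minus wild-type ileum, with 95% intervals, of the measured members of 11 gene families. Blue members were called higher in the hippocampus, red ones in the ileum and grey ones not called. *Fabp3* lies at 4.61 and *Fabp2* at -9.09.

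Peptides and vessels were mixed. Of 22 genes of peptides used in both brain and gut, 10 were higher in the hippocampus and 9 in the ileum. The shares of all clusters were 27.1% and 29.4%. *Cck*, cholecystokinin, was at 10.27, 10.35 and 10.06 in the hippocampus against 6.0, 6.73 and 6.44 in the ileum (14.2-fold), and *Npy* and *Grp* were 6.42- and 10.8-fold higher there. *Gcg*, the proglucagon gene of L cells, was at 3.16, 2.88 and 3.19 in the hippocampus against 7.89, 9.37 and 9.81 in the ileum (61.8-fold higher in the ileum), and *Pyy*, *Gal* and *Nts* were 15.3-, 15.3- and 12.9-fold higher there. Endothelial genes common to both organs spanned -1.15 to 1.36, whereas barrier genes were higher in the hippocampus for 6 of 8, *Slco1c1*, a thyroid hormone carrier, by 37.3-fold. *Abcb1a*, the drug pump of the blood-brain barrier and of the brush border, was 10.9-fold higher in the ileum.

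MicroRNA loci gave a smaller share of calls, and many of their values were low, where signal cannot be told from background. These arrays read the hairpin or primary transcript, not the mature RNA. Of 306 clusters named for 303 microRNA loci, 39 (12.7%) were higher in the hippocampus and 26 (8.5%) in the ileum, against 27.1% and 29.4% of all clusters, and 3 and 2 passed the 2-fold test. The loci named here were chosen after their values were seen, 278 of the 303 loci are in RefSeq's table (GRCm38.p6), and the seed, bases 2 to 8, is in capitals. *Mir9-2* was at 6.47, 6.99 and 6.18 in the hippocampus against 2.03, 1.81 and 1.91 in the ileum (24.8-fold, limma adjusted p = 4.63e-07), *Mir138-2* at 4.82, 5.36 and 6.37 in the hippocampus against 3.26, 3.77 and 3.08 in the ileum (4.43-fold) and *Mir137* at 4.08, 4.07 and 3.20 in the hippocampus against 2.23, 2.21 and 1.97 in the ileum (3.14-fold). All 3 are known for neural expression, and none of their groups overlapped. The same mature miR-9-5p can also come from *Mir9-1*, at 4.20, 4.80 and 5.02 in the hippocampus against 3.82, 3.95 and 3.61 in the ileum (adjusted p = 0.00884), and from *Mir9-3*, at 3.12, 3.11 and 3.13 against 2.37, 2.77 and 2.78 (adjusted p = 0.0173). The mature miR-138-5p can also come from *Mir138-1*, at 4.13, 4.17 and 4.21 against 4.22, 4.08 and 3.84 (adjusted p = 0.456).
miR-9-5p (*Mir9-2*, chr13:83738821-83738843, + strand): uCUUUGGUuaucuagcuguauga
miR-138-5p (*Mir138-2*, chr8:94324312-94324334, + strand): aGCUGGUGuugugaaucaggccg
miR-137-3p (*Mir137*, chr3:118433901-118433923, + strand): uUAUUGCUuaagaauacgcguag

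In the ileum *Mir200b*, known from epithelia, was at 5.19, 4.04 and 5.77, against 2.59, 2.66 and 2.59 in the hippocampus (5.23-fold, limma adjusted p = 9.54e-04), and *Mir200a*, beside it on chromosome 4, was 2.59-fold higher. *Mir192* was at 4.38, 3.43 and 4.41 against 2.56, 2.53 and 2.61 (2.84-fold, adjusted p = 0.00125) and *Mir215* at 5.52, 3.74 and 4.36 against 2.88, 2.44 and 2.71 (3.64-fold, adjusted p = 0.00473). These 2 loci lie on different chromosomes and their 5p arms share 1 seed, so they are shown together.
miR-192-5p (*Mir192*, chr19:6264857-6264877, + strand): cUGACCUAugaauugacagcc
miR-215-5p (*Mir215*, chr1:185313610-185313630, + strand): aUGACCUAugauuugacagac
miR-200b-3p (*Mir200b*, chr4:156055685-156055706, - strand): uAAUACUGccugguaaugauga
miR-200a-3p (*Mir200a*, chr4:156054911-156054932, - strand): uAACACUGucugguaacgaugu

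Genes of neurons and glia that also serve the gut wall were divided. Of 12 genes listed for the enteric nervous system 6 were higher in the hippocampus and 5 in the ileum. The shares of all clusters were 27.1% and 29.4%. *Uchl1*, *Elavl4* and *Nos1*, used in central neurons too, were 18.2-, 8.0- and 8.40-fold higher in the hippocampus, and *Sox10*, shared by oligodendrocytes and enteric glia, 6.20-fold. *Ret*, the receptor that guides the nerve cells of the gut, was at 5.09, 5.38 and 4.72 in the hippocampus against 6.78, 6.91 and 6.96 in the ileum (3.53-fold), and *Hand2* and *Prph*, peripherin, were 5.37- and 3.28-fold higher there. Tuft cell genes were higher in the ileum for 5 of 7, *Trpm5*, the taste channel, by 8.34-fold, while *Dclk1*, also a kinase of neurons, was 12.5-fold higher in the hippocampus.

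Some lymphoid genes were above the hippocampus on all 3 ileum arrays. *Jchain*, which joins IgA, was at 2.87, 2.76 and 2.75 in the hippocampus against 8.18, 9.30 and 8.68 in the ileum (60.6-fold, adjusted p = 4.54e-07). *Pigr*, the epithelial carrier of IgA, was 262-fold higher in the ileum, and *Sdc1*, shared by plasma cells and epithelium, 24.4-fold. *Cd3g*, a chain of the T cell receptor complex, was at 2.71, 2.92 and 2.94 against 5.93, 7.41 and 5.54 (10.8-fold), and *Itgae*, the integrin of T cells within the epithelium, was 3.39-fold higher. Of 10 dendritic cell genes 4 were higher in the ileum, beside 29.4% of all clusters. The 4 were *Ly75* (10.6-fold), *Kmo*, *Xcr1* and *Ccl22*. *Flt3*, the growth factor receptor of dendritic cells, was not called. It was at 5.30, 5.36 and 4.82 in the hippocampus against 3.60, 5.42 and 3.96 in the ileum.

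Reference genes were set beside these lists. Of 11, 3 were higher in the hippocampus, 3 in the ileum and 5 not called, with a median of 0.06. The shares of all clusters were 27.1% and 29.4%. *Gapdh* and *Actb* differed by 0.18 and -0.20 and were not called, while *Rplp0*, a ribosomal protein gene, was at 10.62, 10.35 and 10.70 in the hippocampus against 11.79, 11.94 and 11.81 in the ileum (adjusted p = 5.18e-05). Of 8 genes listed for sterol synthesis 7 were higher in the ileum, by up to 2.50-fold (*Cyp51*), and 0 passed the 2-fold test there. The other member, *Cyp46a1*, clears cholesterol from neurons and was 48.3-fold higher in the hippocampus. Of the 8 calls 3 stayed past the threshold in every setting tried.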

How the data were processed

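RNA of each sample was extracted with Trizol and an RNeasy Mini kit per the labels and hybridised to Affymetrix Mouse Gene 1.0 ST arrays. The authors deposited log2 values after RMA background correction, quantile normalisation and summarisation over all 12 arrays. The version of their RMA software was not stated in the sources at hand. These values were used without further scaling, and 0 columns of per-sample values were left unused. Groups came from the labels. The 3 wild-type hippocampus and 3 wild-type ileum arrays were fitted with limma 3.58.1 in R 4.3.3, with Benjamini-Hochberg adjustment over 21218 clusters of a single gene symbol, and treat for differences over 2-fold. The scripts were tested on simulated data. An exact permutation test of 3 against 3 cannot go below p = 0.1 and was not used.

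Each gene was read from its cluster of highest mean signal over all arrays. Named were all macrophage list members and paralog families, of every other list the first 3 members and up to 6 of the largest difference, and the 15 clusters of largest difference in each direction. Other genes, the motifs and the microRNA loci were named after their values were seen. The members and lists were chosen with earlier results of these data known. Of the listed genes, 53 of 580 had no cluster of their own and were not analysed here. Alternatives changed the moderation, scaling, adjustment, dim clusters, sex, array weights, arrays in the fit and array code number, and left out each array in turn. The study itself used one-way analysis of variance. Microarrays hold no read depth, so the number of arrays limits the precision.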

Additional observations from a re-analysis of the deposited data

Results flagged for a closer look

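For 14 of the 70 macrophage genes the tissue difference itself differed between genotypes, by limma's interaction term over all clusters on the 12 arrays. Over all clusters 19 were called, and in all 19 the FIRE -/- value lay lower. The change of the hippocampus minus ileum difference, FIRE -/- minus wild type on the log2 scale, was -4.53 for *Selplg*, -3.92 for *Csf1r*, -3.89 for *Ctss* and -3.50 for *P2ry13*. It was -3.44 for *Slc2a5*, -3.42 for *Mpeg1*, -3.10 for *Cx3cr1* and -2.89 for *Siglech*. For *C1qa*, *Cd33*, *Itgam*, *Tyrobp*, *Trem2* and *Irf8* it was -2.69, -2.57, -2.55, -2.29, -2.27 and -1.71. *Sall1*, *Cst3*, *Sirpa* and *Il34* were not among them.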

How the results depend on the processing

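Of 557 named clusters 450 were called, 440 of these kept their sign in every setting tried and 378 also stayed past the threshold in every setting. The count of macrophage genes past the threshold, 42, fell to 26 with the array code number as a term and lay between 37 and 53 in the other settings, with 39 to 45 when 1 array was left out. The cause of the fall was not tested. Hippocampal calls were 47.9% of all calls, 41.5% with arrays centred on the median cluster and 54.7% with arrays centred on the reference genes, while the median difference of all clusters went to -0.154 and 0.085.

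Among named clusters, sign changes that involved a call, in the main fit or in the other setting, occurred only in 1 contrast. This was the contrast of FIRE -/- arrays of code number 09. Genes called in neither fit changed sign in other settings too. There *Csf1r* was at -3.31, *Laptm5* at -3.54, *Ly86* at -3.27, *Selplg* at -3.23, *Tmem119* at -2.42 and *Cd33* at -2.31. *P2ry13*, *Vsir*, *Olfml3*, *Cx3cr1*, *Cd68*, *Siglech* and *Csf3r* were at -1.93, -1.84, -1.41, -1.28, -1.04, -0.88 and -0.52. *Crybb1*, *Gpr34*, *Fcrls* and *Trem2* were at -0.21, -0.16, -0.102 and -0.0742, and *Clec10a* and *Slc4a5* at 0.0536 and 0.95. That contrast compares mice without the enhancer. No paired analysis was possible because the labels give the hippocampus and ileum samples no shared replicate numbers. Dim genes are limited by unknown background, and a low value cannot be told from no signal.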
